A study of Homo sapiens with 12 samples.

Results

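Transcript levels were compared for 10 genes of transcription factors that lymphocytes use during activation: NFATC1 and NFATC2, the nuclear receptor gene NR4A1, EGR1 and EGR2, the AP-1 family genes FOS, JUN, BATF and BATF3, and IRF4. They were taken by symbol from a table of 17589 genes, of which 13657 had enough reads to be tested, and all 10 were among these. The material was RNA from YT, an established human cell line labelled as natural-killer-like lymphoid cells, without a stimulus. The cells had been infected with lentivirus, and 4 populations were sequenced in 3 libraries each (12 in all): CTRL, which carried eGFP alone; hnCD16, which carried an Fc receptor CD16a that binds antibody more tightly and resists shedding; FR1, in which that receptor was joined to the signalling parts of 2B4, DAP10 and CD3ζ; and FR2, in which it was joined to those of DAP10 and CD3ζ. Receptor genes were driven by the constitutive EF1A promoter, and per the study's methods each population was sorted for eGFP after infection and expanded, so a population is 1 infected pool. The labels do not say whether the 3 libraries of a group came from separate cultures, and p-values therefore measure the spread between libraries, which may be technical. The libraries held 17714550 to 18729013 counts, and 3 counts corresponded to 0.149 to 0.174 CPM, counts scaled to the library size. FCGR3A, the gene of CD16a, had 0 counts in each CTRL library, and had 453 to 480 in the hnCD16 libraries, with 559 to 567 for FR1 and 1012 to 1132 for FR2.

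Receptors that signal through immunoreceptor tyrosine-based activation motifs, such as CD3ζ, open calcium channels and start the MAP kinase cascade. Calcium activates the phosphatase calcineurin, which removes phosphates from NFAT proteins so that they enter the nucleus. There they bind DNA, often side by side with AP-1, a dimer of a FOS and a JUN protein. The MAP kinase branch switches on immediate early genes such as FOS, EGR1 and EGR2 through serum response factor and its partners. BATF and BATF3 lack the transactivation domain of FOS, pair with JUN proteins and can bind DNA together with IRF4, whose level rises with the strength of receptor signalling in lymphocytes.

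The markers of the cells differed between the groups and went against the label in 2 of them, which bears on every comparison of FR1 or FR2 with hnCD16 or CTRL. The 16 NK cell markers summed to 155 to 165 TPM (abundance per transcript length) in CTRL and 142 to 155 in hnCD16, against 7827 to 8209 in FR1 and, in FR2, 7508 to 7605. The 12 T cell markers summed to 1749 to 1981 TPM in CTRL and 1912 to 1964 in hnCD16, against 197 to 199 in FR1 and 222 to 237 in FR2. Of the 8 markers of immature T cells, 7 were in the table, and they summed to 111 to 118 TPM in CTRL and 95.7 to 99.7 in hnCD16, against 0.0600 to 0.210 in FR1 and, in FR2, 0.140 to 0.580. Of the 14 NK cell markers tested, 9 were called higher and 3 lower in FR1 against hnCD16 (9 and 4 in FR2), and of the 12 T cell markers 1 was called higher and 10 lower in each. Of all genes tested, 18.7% were called higher and 19.6% lower in FR1 against hnCD16, and 19.6% and 19.8% in FR2. In FR1 and FR2 the NK cell sum is mostly the granule protease gene GZMB, with 1.60 and 1.49 TPM in CTRL and hnCD16 against 5551 and 5145 in FR1 and FR2. CD3D, a chain of the T cell receptor complex, had a mean of 1321 and 1409 TPM against 0.150 and 0.247. Members of both lists also went the other way: the NK cell markers GZMA (47.9 TPM in hnCD16 and 9.49 in FR1), CD7 (43.2 and 1.15) and NCR3 (9.96 and 1.36) were lower in FR1, and the T cell marker CD28 (1.16 and 32.5) was higher. The lists hold CD244 (2B4), part of which FR1 carries, and CD247 (CD3ζ), part of which FR1 and FR2 carry. CD244 had 7.53 TPM in hnCD16, 106 in FR1 and 84.9 in FR2, whose construct lacks 2B4. At 3 counts or fewer in every library were 2 NK cell markers in CTRL, KLRF1 and TBX21, and 3 in hnCD16, NCAM1, NCR1 and KLRF1. In FR1 and FR2 these were KLRF1 and TYROBP (the latter at 0), together with the T cell markers CD3D, CD4, CD8A and CD8B and, in FR1, TRAT1. The construct and the kind of cell cannot be told apart in those comparisons, nor can fewer cells of a type and less RNA per cell in these bulk libraries. Between hnCD16 and CTRL no gene of the NK cell, T cell or immature T cell list was called in edgeR. Only 0.527% of all genes tested were called there, so a short list without a call is the usual case. Between FR1 and FR2, 2 NK cell markers (GNLY and NCR3) and the T cell marker THEMIS were called higher in FR1, and the immature T cell marker RAG1 was called lower, as was CSF1R of a myeloid list. Of all genes tested, 1.93% were called in that comparison, 0.439% higher and 1.49% lower in FR1. GNLY had 68.0 TPM in FR1 and 22.1 in FR2, and THEMIS had 4.42 and 1.5. The sums of the NK cell and T cell lists did not overlap between FR1 and FR2. On the CPM scale, the libraries of 50.1% of all genes tested did not overlap between FR1 and FR2 either. The part of these marker differences in the comparison of FR1 with FR2 was not tested.

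**Figure D1:**
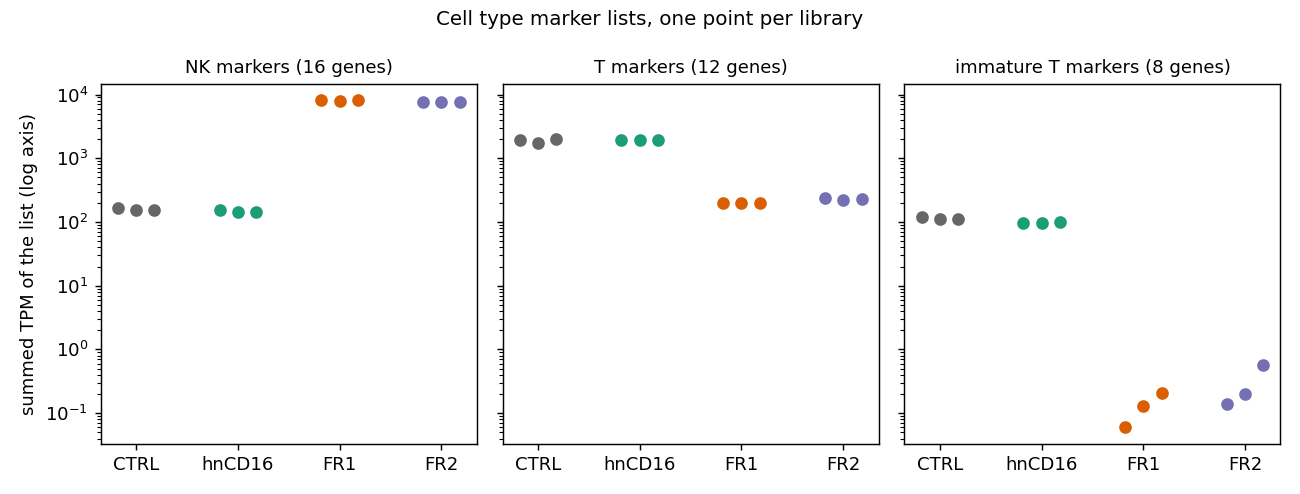
Summed TPM (log axis) of the NK cell, T cell and immature T cell marker lists, with 1 point per library. The NK cell list lies at 142 to 165 TPM in CTRL and hnCD16 and at 7508 to 8209 TPM in FR1 and FR2, and both T cell lists are higher in CTRL and hnCD16.

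The sequences just before the start sites are shown for 4 of the genes whose transcripts were higher in FR1 and FR2, with the elements found in them: serum response factor sites in EGR1, a cyclic AMP response element variant in JUN, and TATA boxes, which are general promoter elements, in FOS and IRF4. RefSeq promoters were found for 9 of the 10 genes (all but BATF3), and each run below is the 250 bases before the annotated start in GRCh38.p14, read along the gene's strand. Capitals mark the matches named next, and matches of the short NFAT core are left in lower case. In EGR1 (chr5:138465229-138465478, + strand) these are an EGR motif 198 to 190 bases before the start and a pair of CArG boxes, the sites that serum response factor binds, at 105 to 96 and 83 to 74 bases. In JUN (chr1:58784048-58784297, - strand) the match is TGACATCA at 67 to 60 bases, a variant of the cyclic AMP response element. In FOS (chr14:75278578-75278827, + strand) and IRF4 (chr6:391502-391751, + strand) it is a TATA box at 33 to 28 and 32 to 27 bases. Elements beyond these 250 bases, or spelled otherwise than the motifs searched, would not be found.
EGR1: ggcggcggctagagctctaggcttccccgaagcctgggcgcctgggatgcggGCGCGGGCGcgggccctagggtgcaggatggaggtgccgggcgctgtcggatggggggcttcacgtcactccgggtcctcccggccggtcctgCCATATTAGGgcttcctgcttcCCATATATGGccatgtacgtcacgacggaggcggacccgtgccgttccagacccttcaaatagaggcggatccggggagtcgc
JUN: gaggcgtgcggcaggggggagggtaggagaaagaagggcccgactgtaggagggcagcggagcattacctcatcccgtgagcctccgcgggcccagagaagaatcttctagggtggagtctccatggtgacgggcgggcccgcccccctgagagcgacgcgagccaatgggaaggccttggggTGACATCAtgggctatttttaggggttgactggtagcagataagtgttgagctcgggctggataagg
FOS: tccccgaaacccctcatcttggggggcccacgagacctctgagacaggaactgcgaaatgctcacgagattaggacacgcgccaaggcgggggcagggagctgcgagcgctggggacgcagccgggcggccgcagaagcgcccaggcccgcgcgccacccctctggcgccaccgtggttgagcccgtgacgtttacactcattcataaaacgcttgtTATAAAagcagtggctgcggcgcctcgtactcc
IRF4: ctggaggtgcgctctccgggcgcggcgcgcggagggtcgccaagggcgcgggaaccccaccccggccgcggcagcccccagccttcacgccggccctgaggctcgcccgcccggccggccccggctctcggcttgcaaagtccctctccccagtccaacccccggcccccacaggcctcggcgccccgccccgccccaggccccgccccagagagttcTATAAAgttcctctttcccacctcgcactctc
The motifs were searched on both strands of 35116 promoters of this length. CArG boxes were present in 1.16% of them, the EGR motif GCGNGGGCG in 8.41%, TGACNTCA in 6.87%, TGACGTCA, which is among the matches of TGACNTCA, in 1.65%, and TATAAA in 10.7%. The AP-1 motif TGANTCA (6.57% of promoters), the NR4A motif AAAGGTCA (1.05%) and the interferon-stimulated response element, which IRF proteins bind (3.02%), had no match in the 9 windows. AP-1 sites were searched only as TGANTCA, which the longer TGACATCA of JUN cannot match. The lack of a match therefore does not show that JUN has no AP-1 site. GGAAA, the core that NFAT proteins bind, is short and was present in 55.6% of promoters and in 4 of the 9, those of BATF, IRF4, NFATC1 and NFATC2. TGACNTCA was also present in NFATC1 and TATAAA in NFATC2. EGR2, NR4A1 and BATF, also higher in FR1, had no match of the motifs searched other than the GGAAA of BATF. CArG boxes were in 1 of the 9 windows, that of EGR1. The 4 windows shown thus do not stand for all the higher genes.

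Compared with hnCD16, most of the 10 genes differed in FR1 and FR2. A gene was called when it differed by at least 2-fold (log2 of 1) with a Benjamini-Hochberg adjusted p of 0.05 or less in edgeR. In FR1 against hnCD16, 9 of 10 were called, 7 higher (NR4A1, EGR1, EGR2, FOS, JUN, BATF and IRF4) and 2 lower (NFATC1 and BATF3), where 38.3% of all genes tested were called, 18.7% higher and 19.6% lower. In FR2 against hnCD16, 7 were called, 6 higher (EGR1, EGR2, FOS, JUN, BATF and IRF4) and NFATC1 lower, against 39.5% of all genes (19.6% higher, 19.8% lower). Against CTRL, 8 were called in FR1 (the same 6 higher, NFATC1 and BATF3 lower; all genes 38.0%, of which 18.3% higher and 19.8% lower) and 7 in FR2 (the same 6 higher, NFATC1 lower; all genes 38.2%, of which 18.7% higher and 19.6% lower). By the adjusted p alone, 10 of 10 passed in FR1 against hnCD16 and 9 in FR2, where 79.1% and 80.1% of all genes did, and 10 in FR1 and 10 in FR2 against CTRL, where 79.9% and 80.2% did. On the CPM scale the libraries did not overlap for 10, 9, 10 and 9 of the 10 genes in FR1 and FR2 against hnCD16 and FR1 and FR2 against CTRL, close to the 80.8%, 81.7%, 80.5% and 81.2% of all genes. A gap between the libraries was thus common to most genes in these comparisons. These comparisons share libraries and are not independent of one another. The median log2 fold change of the 10 genes was 3.95 in FR1 and 3.81 in FR2 against hnCD16, and 4.08 and 4.15 against CTRL, where the medians of all genes tested were -0.01, -0.03, -0.03 and -0.04. With the genes near 0 counts set to the nearer end of their counting interval the 4 medians were 3.95, 3.76, 4.08 and 3.98.

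**Figure D2:**
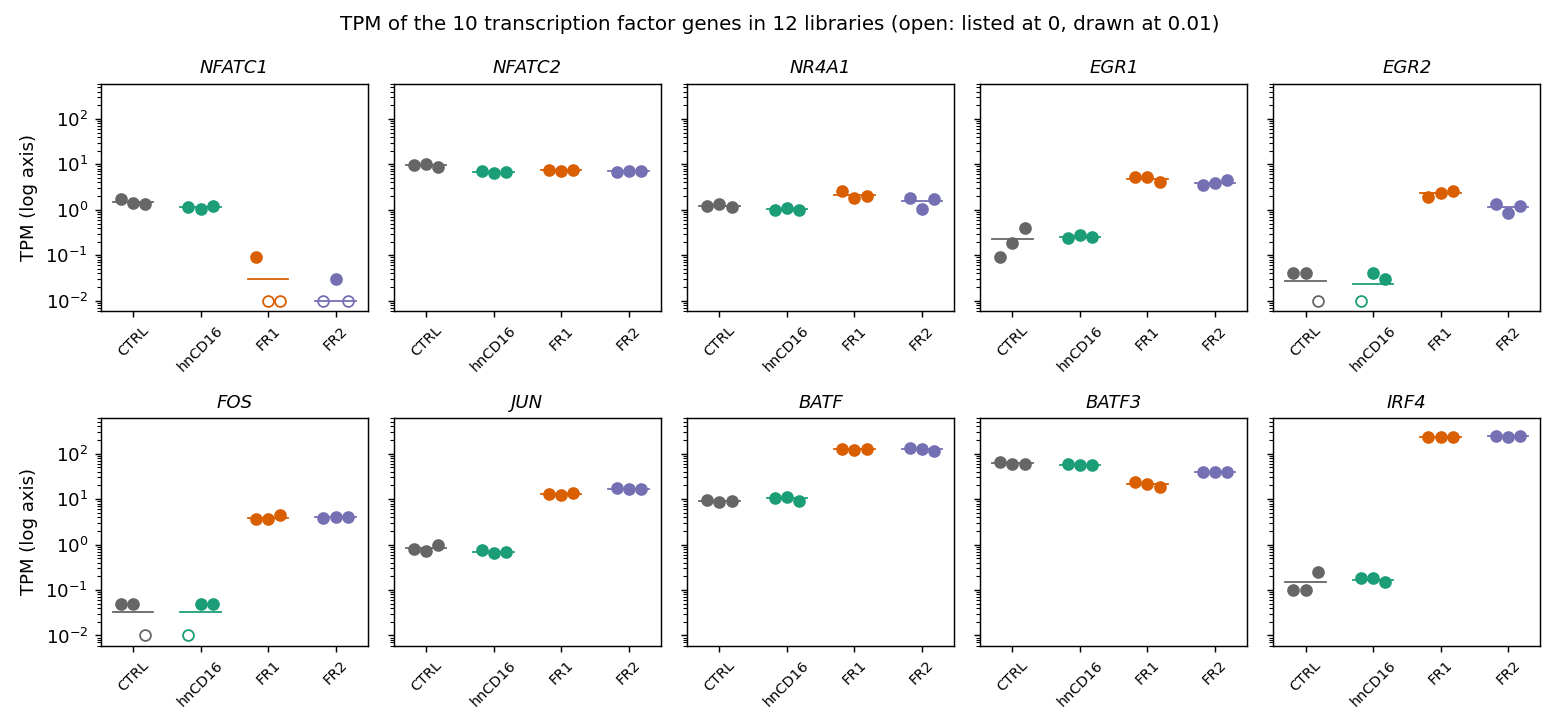
TPM (log axis) of each gene in the 12 libraries, with the group mean as a line; open points are libraries listed at 0, drawn at 0.01. IRF4, BATF, JUN, FOS, EGR1 and EGR2 lie higher in all FR1 and FR2 libraries than in all CTRL and hnCD16 libraries, NFATC1 and BATF3 lie lower, and NFATC2 stays between 6.41 and 10 TPM.

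**Figure D3:**
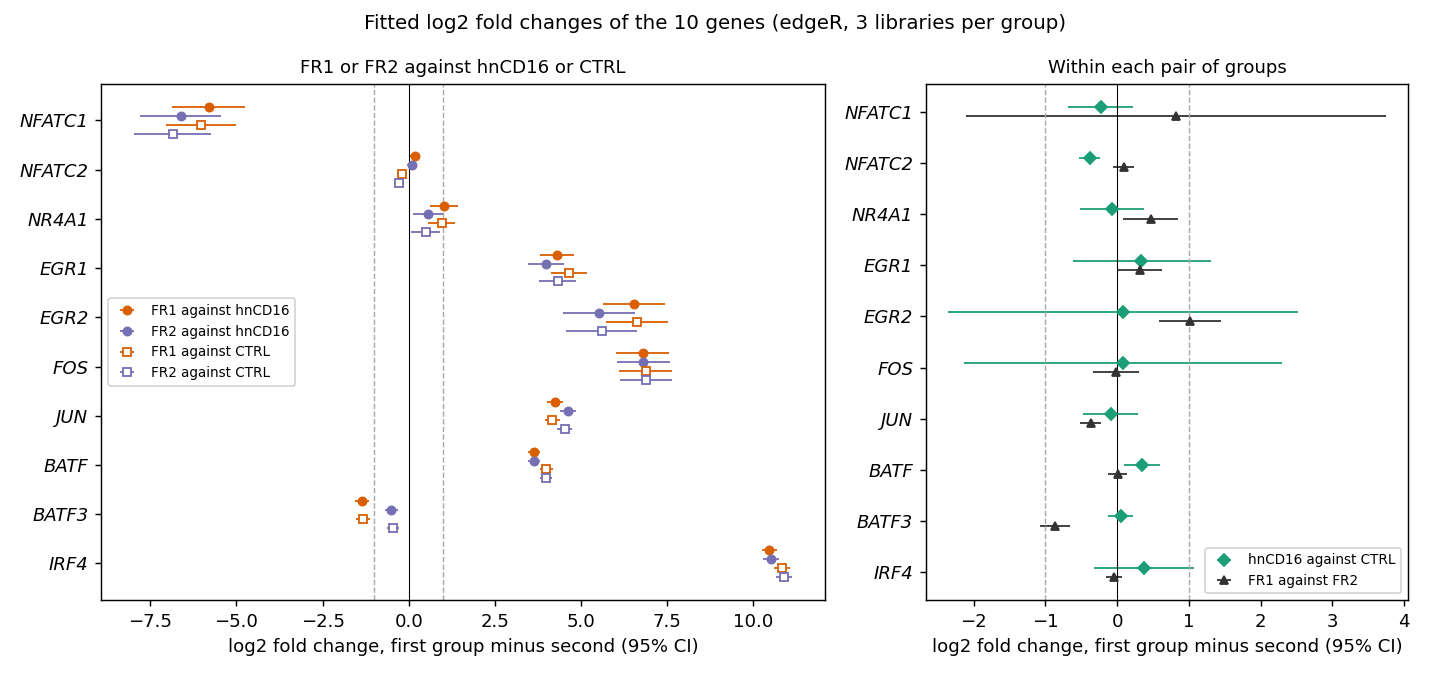
Fitted log2 fold changes with 95% confidence intervals (edgeR, 3 libraries per group); dashed lines mark a 2-fold change. On the left FR1 and FR2 are set against hnCD16 (filled circles) and CTRL (open squares), and IRF4 lies near 10.5 to 10.9; on the right, within each pair of groups, only EGR2 reaches a log2 fold change of 1 with its adjusted p under the threshold, in FR1 against FR2.

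NFATC1 and NFATC2 encode the calcium-regulated factors NFATc1 and NFATc2, which are found in most lymphocytes. NFATC1 (chromosome 18, 79395856 to 79529325, + strand, GRCh38) was nearly absent from FR1 and FR2. It had 69, 54 and 53 counts in the CTRL libraries and 47, 43 and 50 in hnCD16, but 2, 0 and 0 in FR1 and 0, 1 and 0 in FR2. Per length these were low levels, with means of 1.47 TPM in CTRL and 1.14 in hnCD16. All CTRL and hnCD16 libraries were above all FR1 and FR2 libraries. By summed counts NFATC1 was 65.4-fold lower in FR1 than in hnCD16 (95% counting interval 17.8 to 546; edgeR adjusted p = 6.59e-09) and 133-fold lower in FR2 (23.5 to 5300; edgeR adjusted p = 4.04e-09). Such intervals cover counting error only, and with a count of 1 or 2 on one side the size of the difference is poorly fixed.

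NFATC2 (chromosome 20, 51386957 to 51562831, - strand) was present at like levels in all groups. Its TPM values were 9.83, 10 and 8.95 in CTRL and 7.04, 6.41 and 6.84 in hnCD16, next to 7.41, 7.28 and 7.56 in FR1 and 6.92, 7.12 and 7.19 in FR2. CTRL was the highest group and the other three lay close together. On the CPM scale used in the test, FR1 was above hnCD16 by a log2 of 0.19 (SE 0.0703, 95% interval 0.04 to 0.34; edgeR adjusted p = 0.0193) and FR2 by 0.10 (-0.05 to 0.25; edgeR adjusted p = 0.189), both far from the 2-fold threshold. Against CTRL the differences were -0.19 and -0.28.

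EGR1 and EGR2 encode zinc finger factors of the immediate early response, and EGR2 together with EGR3 is known to restrain activated T cells. EGR1 (chromosome 5, 138465479 to 138469303, + strand) had 3, 6 and 12 counts in CTRL and 8, 9 and 8 in hnCD16, against 169, 167 and 132 in FR1 and 113, 126 and 142 in FR2. The FR libraries thus lay above the others without overlap. The level remained modest, at 4.89 ± 0.624 TPM in FR1 and 3.95 ± 0.486 TPM in FR2 (SD, n = 3). EGR1 was 19.7-fold higher in FR1 than in hnCD16 (log2 4.3, SE 0.239; edgeR adjusted p = 1.34e-11) and 15.8-fold higher in FR2 (log2 3.98, SE 0.248; edgeR adjusted p = 6.33e-11).

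EGR2 (chromosome 10, 62811996 to 62819167, - strand) was at the limit of detection outside the FR groups. It had 1, 1 and 0 counts in CTRL and 0, 1 and 1 in hnCD16, 58, 71 and 78 in FR1, and 41, 27 and 36 in FR2. By summed counts FR1 was 111-fold above hnCD16 (counting interval 30.3 to 920; edgeR adjusted p = 1.29e-10) and FR2 54.6-fold (14.7 to 457; edgeR adjusted p = 1.07e-08). FR1 and FR2 also differed from each other, as described below.

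NR4A1 (chromosome 12, 52022832 to 52059507, + strand) encodes NUR77, an orphan nuclear receptor whose transcript appears soon after antigen receptor signalling. It differed far less than EGR1 and EGR2. Its counts were 42, 46 and 37 in CTRL and 36, 39 and 36 in hnCD16, against 85, 61 and 66 in FR1 and 60, 38 and 58 in FR2. All FR1 libraries were above all hnCD16 and CTRL libraries, whereas replicate 2 of FR2 lay within the range of CTRL on the CPM scale. The difference was 1.03 in log2 for FR1 against hnCD16 (SE 0.194, 95% interval 0.62 to 1.44; edgeR adjusted p = 1.05e-04), just past the 2-fold threshold, and 0.96 for FR1 against CTRL (SE 0.19; edgeR adjusted p = 1.75e-04), just short of it. The first of these values fell to 0.88 without replicate 1 of FR1, which had the highest level, and to 1.0, marginally under the threshold, without replicate 3 of hnCD16. For FR2 the log2 differences were 0.56 against hnCD16 (edgeR adjusted p = 0.0183) and 0.49 against CTRL (edgeR adjusted p = 0.0331).

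FOS and JUN encode the partners of the classical AP-1 dimer. FOS (chromosome 14, 75278826 to 75282230, + strand) had 1, 1 and 0 counts in CTRL and 0, 1 and 1 in hnCD16, but 77, 77 and 93 in FR1 and 82, 88 and 84 in FR2. By summed counts it was 132-fold higher in FR1 than in hnCD16 (counting interval 36.2 to 1097; edgeR adjusted p = 7.94e-12) and 133-fold higher in FR2 (36.6 to 1108; edgeR adjusted p = 6.76e-12). Even so FOS reached only 3.88 ± 0.459 TPM in FR1 and 3.95 ± 0.111 TPM in FR2 (SD, n = 3), among the lower levels of the 10 genes there. JUN (chromosome 1, 58776845 to 58784048, - strand) had TPM values of 0.80, 0.71 and 0.98 in CTRL and 0.75, 0.65 and 0.70 in hnCD16, against 13, 12.1 and 13.5 in FR1 and 17.4, 16.4 and 16.4 in FR2. The 4 groups formed 3 levels, with FR2 above FR1 and both above the rest. JUN was 19.1-fold higher in FR1 than in hnCD16 (log2 4.26, SE 0.108; edgeR adjusted p = 1.70e-16) and 24.7-fold higher in FR2 (log2 4.63, SE 0.105; edgeR adjusted p = 3.28e-17).

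BATF and BATF3, which encode closely related AP-1 factors, moved in opposite directions in FR1. BATF (chromosome 14, 75522455 to 75546993, + strand) lies on the same chromosome as FOS and is required for effector programmes of T cells. Its TPM values were 9.51, 8.67 and 9.17 in CTRL and 10.7, 11.3 and 9.26 in hnCD16, against 126, 119 and 130 in FR1 and 133, 124 and 117 in FR2. FR1 and FR2 shared one range, far above the other groups. BATF was 12.5-fold higher in FR1 than in hnCD16 (log2 3.65, SE 0.0838; edgeR adjusted p = 4.03e-17) and 12.4-fold higher in FR2 (log2 3.63, SE 0.0837; edgeR adjusted p = 4.13e-17).

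BATF3 (chromosome 1, 212686417 to 212699840, - strand), known for its need in cross-presenting dendritic cells, was the most abundant of the 10 genes in CTRL and hnCD16. Its TPM values were 65.0, 59.4 and 60.8 in CTRL and 58.5, 57.6 and 55.9 in hnCD16, against 24.0, 21.1 and 18.1 in FR1 and 39.0, 38.9 and 38.7 in FR2. No FR library reached the level of a CTRL or hnCD16 library, and FR1 was lowest. BATF3 was 2.57-fold lower in FR1 than in hnCD16 (log2 -1.36, SE 0.0943; edgeR adjusted p = 3.06e-10) and 2.49-fold lower than in CTRL (log2 -1.32, SE 0.0940; edgeR adjusted p = 4.77e-10). FR2 differed from hnCD16 in the same direction by a log2 of -0.50 (SE 0.0863; edgeR adjusted p = 4.02e-05), which did not reach the 2-fold threshold.

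IRF4 (chromosome 6, 391739 to 411443, + strand), which encodes a lymphocyte-restricted factor that binds DNA with BATF and JUN, had the widest range of the 10 genes. It had 5, 5 and 13 counts in CTRL and 10, 10 and 8 in hnCD16, against 12547, 12405 and 12758 in FR1 and 13428, 12912 and 13096 in FR2. Per length this was 0.150 ± 0.0866 TPM in CTRL and 0.170 ± 0.0173 in hnCD16, against 231 ± 4.45 in FR1 and 239 ± 6.81 in FR2 (SD, n = 3), so that IRF4 passed from the lower ranks of the 10 genes to the top. The fold change was 1421 for FR1 against hnCD16 (log2 10.47, SE 0.106; edgeR adjusted p = 3.36e-21) and 1460 for FR2 (log2 10.51, SE 0.106; edgeR adjusted p = 2.82e-21). Against CTRL the log2 values were 10.85 and 10.89.

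The order of the levels per length changed with the group. In CTRL it was BATF3 (61.7 TPM), NFATC2 (9.60), BATF (9.12), NFATC1 (1.47), NR4A1 (1.24), JUN (0.830), EGR1 (0.223), IRF4 (0.150), FOS (0.0333) and EGR2 (0.0267). The libraries overlapped between NFATC2 and BATF, NFATC1 and NR4A1, EGR1 and IRF4, and FOS and EGR2, so these neighbours had no clear order. The hnCD16 libraries had the same order except that BATF (10.4 TPM) stood above NFATC2 (6.76 TPM), with no overlap between them, while NFATC1 and NR4A1, and FOS and EGR2, overlapped. In FR1 the order was IRF4 (231 TPM), BATF (125), BATF3 (21.1), JUN (12.8), NFATC2 (7.42), EGR1 (4.89), FOS (3.88), EGR2 (2.29), NR4A1 (2.16) and NFATC1 (0.0300), with overlap between EGR1 and FOS and between EGR2 and NR4A1. In FR2 the first 5 places were the same, followed by FOS and EGR1 (both 3.95 TPM, overlapping), NR4A1 (1.54) and EGR2 (1.14), which also overlapped, and NFATC1 (0.010). IRF4 and BATF thus stood far above FOS, EGR1, EGR2 and NR4A1 in the FR groups.

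FR1 carries the signalling part of 2B4 in addition to those of FR2, and the direct comparison asks which genes differ between the constructs. FCGR3A had 559 to 567 counts in FR1 and 1012 to 1132 in FR2, and each construct was 1 infected pool. The added part, the level of the receptor transcript and the pool cannot be told apart here. Of the 10 genes, 1 was called, EGR2, higher in FR1, where 1.93% of all genes tested were called, 0.439% higher in FR1. The libraries did not overlap for 6 of the 10 genes, and for 50.1% of all genes. EGR2 had 3.97 ± 0.562 CPM in FR1 and 1.96 ± 0.393 CPM in FR2 (SD, n = 3), without overlap of the libraries, a log2 difference of 1.02 (SE 0.205, 95% interval 0.58 to 1.45; edgeR adjusted p = 9.40e-04). It lies at the threshold: the log2 difference fell to 0.99 without replicate 2 of FR1, 0.93 without replicate 3 of FR1 and 0.87 without replicate 2 of FR2, and the call was lost each time. It was also lost in DESeq2 and in limma. A further pair of genes had an adjusted p under 0.05 with a smaller difference, so 3 of 10 passed on the adjusted p alone, where 36.2% of all genes did. BATF3 was lower in FR1, at 9.70 ± 1.44 CPM against 17.6 ± 0.181 (log2 -0.86, SE 0.0986; edgeR adjusted p = 5.53e-06), and JUN was lower in FR1, at 24.5 ± 1.21 CPM against 31.6 ± 0.824 (log2 -0.37, SE 0.0657; edgeR adjusted p = 3.43e-04).

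The other genes did not pass between FR1 and FR2. NR4A1 was 0.47 higher in FR1 on the log2 scale (95% interval 0.08 to 0.85; edgeR adjusted p = 0.0558) and EGR1 0.32 higher (0.01 to 0.63; edgeR adjusted p = 0.0983). For IRF4 the log2 difference was -0.04 (-0.15 to 0.07), for BATF 0.01 (-0.12 to 0.14), for NFATC2 0.09 (-0.06 to 0.24) and for FOS -0.01 (-0.34 to 0.31). For these 4 genes the 95% intervals lay within a 2-fold difference in either direction. NFATC1, at 3 counts in all over both groups, could not be compared.

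**Figure D4:**
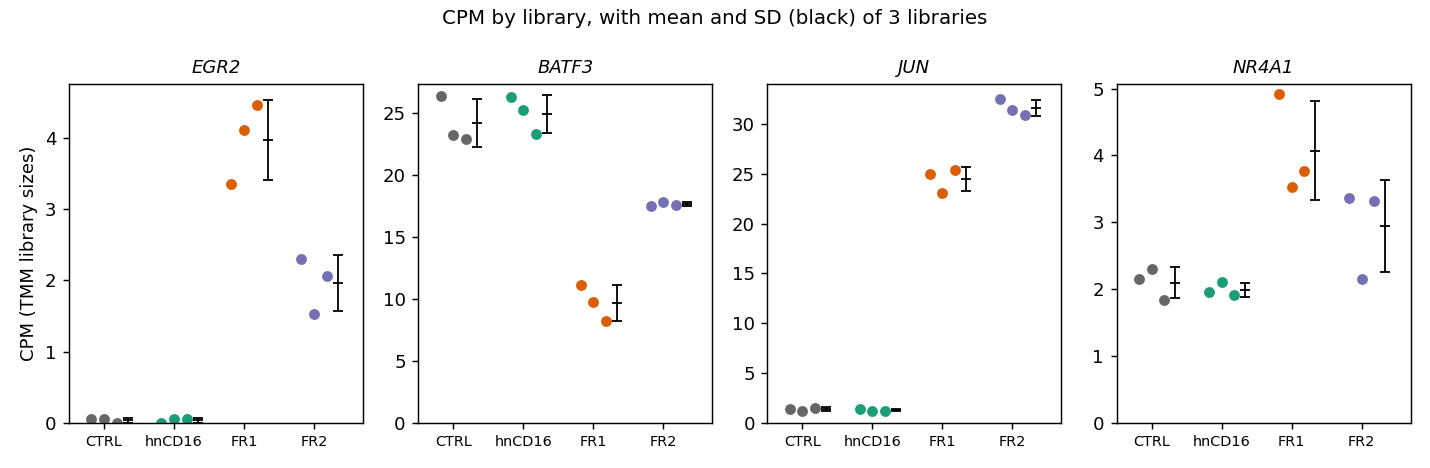
CPM (counts scaled by TMM library sizes, linear axes from 0) of EGR2, BATF3, JUN and NR4A1 in each library, with the mean and SD of 3 libraries in black. The FR1 libraries lie above the FR2 libraries for EGR2 and NR4A1, with replicate 2 of FR2 the lowest FR library of each, and below them for BATF3 and JUN.

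The comparison of hnCD16 with CTRL asks which genes differ with the receptor without added signalling parts. Each of these groups was also 1 infected pool, so the receptor and the pool cannot be told apart here. None of the 10 genes was called in edgeR, where 0.527% of all genes tested were, 0.212% higher and 0.315% lower (0 of 10 in DESeq2 and in limma as well), and 2 had an unadjusted p under 0.05. These were NFATC2, lower in hnCD16 by a log2 of -0.38 (SE 0.0687, 95% interval -0.53 to -0.24; edgeR adjusted p = 3.74e-04), with all hnCD16 libraries below all CTRL libraries, and BATF, with a log2 difference of 0.35 (SE 0.121, 0.09 to 0.60; edgeR adjusted p = 0.0282) and overlapping libraries. Both passed on the adjusted p alone, as did 43.0% of all genes. The libraries did not overlap for 1 of the 10 genes, NFATC2, and for 47.7% of all genes. For BATF3 the interval of the log2 difference was -0.13 to 0.22, for JUN -0.48 to 0.29, for NR4A1 -0.52 to 0.38 and for NFATC1 -0.68 to 0.22. The low counts of IRF4 and EGR1 gave wider intervals, -0.32 to 1.07 and -0.62 to 1.31, which include a 2-fold higher level in hnCD16. FOS and EGR2 had 2 counts in all in each group, and no fold is given.

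Relatives of the 10 genes were counted in the same comparisons with hnCD16, in which 38.3% (FR1) and 39.5% (FR2) of all genes tested were called. Most of the lists are short, and a share near these values is not particular to a list. Of the 3 other NFAT genes 2 were tested, and NFAT5, a factor of the response to salt stress, was called higher in FR1 and FR2 against hnCD16, with means of 5.57 and 4.66 TPM in CTRL and hnCD16 and 12.9 and 12.2 in FR1 and FR2. Of 8 other AP-1 family genes 6 were tested, and 4 were called higher and none lower in FR1 and in FR2 against hnCD16, JUNB, FOSL2, ATF3 and FOSB; the median log2 fold change of the 6 was 2.01 in FR1 and 1.62 in FR2. JUNB, a partner of BATF, had 11.9 and 8.23 TPM in CTRL and hnCD16, 145 in FR1 and 192 in FR2. FOSL2 had 5.46, 4.09, 35.7 and 48.8 TPM in the same order, and ATF3, a stress-responsive factor, 7.45, 5.88, 17.8 and 21.0. Of 4 tested genes of the EGR and NR4A families and their NAB corepressors, 2 were called higher, NR4A2 and NR4A3, the paralogs of NR4A1, whose means in FR1 and FR2 stayed between 0.627 and 1.70 TPM. Among 7 tested IRF genes 3 were called higher in both FR groups against hnCD16 (1 lower in FR2), near the share of all genes, among them IRF2 (7.87 TPM in hnCD16, 32.9 in FR1 and 35.7 in FR2) and IRF9 (4.75, 16.7 and 18.3).

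The genes of the calcium route that were called lay in both directions in FR1. Of 8 genes of calcineurin and its inhibitors, 2 were called higher in FR1 and in FR2 against hnCD16 and none lower, a smaller share than the 38.3% and 39.5% of all genes, and their median log2 fold change was -0.03 and 0.15. One was PPP3CC, a catalytic subunit, with 14.3 TPM in hnCD16, 32.9 in FR1 and 32.2 in FR2. The other was RCAN2, of the calcineurin regulator family, with 0.18 TPM in CTRL and 0.0400 in hnCD16, against 234 in FR1 and 228 in FR2, while RCAN1, whose transcript NFAT is known to induce, had 40.8, 35.9 and 36.0 TPM in hnCD16, FR1 and FR2. RCAN2 was also called lower in hnCD16 than in CTRL, at no more than 8 counts a library. Of 10 genes of calcium entry, 5 were called higher and 2 lower in FR1 and 5 higher and none lower in FR2. The phospholipase gene PLCG2 had 3.71 TPM in hnCD16, 26.4 in FR1 and 23.8 in FR2, and the calcium channel gene ITPR1 had 2.38, 20.2 and 14. Of 5 kinases that phosphorylate NFAT and return it to the cytoplasm none was called in FR1, and 1 was called in FR2, DYRK2, higher, with a log2 of 1.01, a call that was lost in limma on log2(TPM + 1), with total counts only, with no filter, with at least 10 counts in every library and without replicate 1 of hnCD16; the median of the 5 was -0.38 and -0.76.

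Of 12 genes of the MAP kinase route, 3 were called higher and 1 lower in each FR group against hnCD16, near the 38.3% and 39.5% of all genes called, with a median of 0.20 in FR1 and 0.43 in FR2. MAP2K1, which encodes the kinase MEK1, had 27.3 TPM in hnCD16, 63.9 in FR1 and 64.6 in FR2, and ELK4, which encodes a partner of serum response factor at immediate early genes, had 13.2, 37.6 and 33.9. MAPK8 was the gene called lower, with 39.5 TPM in hnCD16, 12.2 in FR1 and 19.9 in FR2 (log2 -1.77 and -1.05). The MAP kinase phosphatases, many of which are induced by the kinases they inactivate, split: of 8, 3 were called higher and 1 lower in FR1, and 4 higher and 1 lower in FR2. DUSP5 had 0.160 TPM in hnCD16, 36.5 in FR1 and 32.5 in FR2, and DUSP4 had 0.0433, 10.1 and 11.7. DUSP10 had 2.22, 12.1 and 11.8 TPM. DUSP6, a phosphatase of ERK, went the other way, with 17.2 TPM in CTRL and 18.4 in hnCD16 but 0.10 in FR1 and 0.167 in FR2.

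Genes that NFAT, AP-1 or IRF4 are known to regulate in activated lymphocytes differed in both directions too. Of 15 tested, 9 were called higher and 5 lower in FR1 and in FR2 against hnCD16, where 38.3% and 39.5% of all genes were called, and the median log2 fold change was 1.98 and 2.83. IFNG, the interferon gamma gene, had 0.0567 TPM in CTRL and 0.0800 in hnCD16, against 348 in FR1 and 328 in FR2, and PRDM1, which encodes the repressor BLIMP-1, had 0.0133, 0.0267, 23.2 and 22.8. IL2RA, the high-affinity chain of the interleukin 2 receptor, had 0.420, 0.167, 43.9 and 97.0 TPM. IL2RA was also called lower in hnCD16 than in CTRL (log2 -1.18, edgeR adjusted p = 0.0130), at no more than 16 counts a library in CTRL and 6 in hnCD16. It was called lower in FR1 than in FR2 too (log2 -1.13, edgeR adjusted p = 2.44e-10). IKZF2, which encodes the factor Helios, had 34.3, 31.2, 0.293 and 0.387 TPM. The others called lower were CD69, TNF, TNFRSF4 and LTA. In hnCD16, FR1 and FR2, CD69 had 15.5, 0.397 and 0.337 TPM, and TNF had 12.6, 0.0533 and 0. TNFRSF4 had 5.70, 0.0700 and 0.0367 TPM in these groups, and LTA had 4.55, 0.433 and 0.160. Of 8 heat shock genes, whose levels respond to stress during culture and handling, 2 were called higher in FR1 against hnCD16. For FR2, 1 was called higher and 1 lower, and both shares are smaller than those of all genes. HSPA1B was called higher in both, by a log2 of 2.65 and 3.08. Its means of 3.22 and 1.52 TPM for CTRL and hnCD16 compare with 9.09 and 12.3 for the FR groups. HSPA1A, at no more than 48 counts a library, was called in FR1 (log2 1.65) but not FR2 (1.40). Its mean in FR1 was 0.980 ± 0.888 TPM (SD, n = 3). In FR1 the calls of the list fell from 2 to 1 in DESeq2, limma and the fit of only 2 groups. The same held with at least 10 counts in every library and without replicate 3 of FR1 or replicate 2 of hnCD16. HSP90AA1 was the gene called lower in FR2 (log2 -1.35). Most of the summed TPM of the list came from HSPA8, HSP90AA1, HSPD1 and HSPE1. The list summed to 9418 to 10285 TPM in CTRL and 10758 to 12067 in hnCD16, next to 9647 to 9986 in FR1 and 6474 to 6749 in FR2, and its part in the levels of FOS, JUN and EGR1 was not tested.

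The transcript estimates showed which forms of the genes carried these counts. EGR1, FOS, JUN and BATF have 1 transcript each in the table. For IRF4, NM_002460 took 64.4% of the counts in FR1 (61.1% to 66.6% over the libraries) and 67.1% in FR2 (66.0% to 68.5%), and NM_001195286 took 34.5% and 32.5%. BATF3 counts lay mostly on NM_018664, with 86.7% in CTRL and 87.2% in hnCD16, next to 91.6% in FR1 and 88.8% in FR2, so that its lower level was found in the main form. NR4A1 counts lay mostly on NM_001202234, with 87.3%, 95.5%, 76.3% and 82.5% in the same order, and the share of NM_173157 overlapped between all groups, from 0% to 27.0% over the FR1 libraries and 0% to 29.0% in FR2.

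NFATC2, whose level differed little at the gene (within a log2 of 0.38), had transcript shares that varied more. The pair NM_012340 and NM_173091 together took 27.4% of its counts in CTRL (17.1% to 38.5% over the libraries), 9.52% in hnCD16 (6.47% to 14.2%), but 5.98% in FR1 (0% to 13.8%) and 0.126% in FR2 (0% to 0.371%). XM_017027851, a predicted form, took 14.5% in CTRL (5.56% to 20%) and 17.3% in hnCD16 (16.0% to 20.3%) against 38.1% in FR1 (31.4% to 44.9%) and 41.4% in FR2 (28.2% to 63.5%). Its share in every FR1 and FR2 library was above that in every CTRL and hnCD16 library. NM_001258296 varied from 21.8% to 57.5% with overlap of all groups. These are estimates that divide reads among overlapping forms, they varied between libraries of a group, and they were not tested.

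For each of the 10 genes, the gene with the most similar profile over the 12 libraries was found by the root mean square difference of centred log2(CPM + 1) values. For IRF4 this was HGF, the hepatocyte growth factor gene, at a difference of 0.121, with 0.0800 TPM in CTRL and 0.0433 in hnCD16, against 421 in FR1 and 505 in FR2. Only 4 genes lay within 0.25 of IRF4. For BATF3 it was SLC17A5, the gene of the lysosomal transporter sialin (0.132), with 12.4, 12, 5.26 and 8.45 TPM, and 160 genes lay within 0.25. The nearest genes of FOS, JUN and BATF were PELI1 (0.0644), P4HTM (0.0719) and TEX14 (0.121), with 276, 143 and 102 genes within 0.25. Those of EGR1, EGR2 and NR4A1 were FAM214A (0.141), TSPAN18 (0.115) and PXT1 (0.119), with 86, 40 and 1260 within 0.25. Those of NFATC1 and NFATC2 were MSX1 (0.0715) and RNF40 (0.0456), with 428 within 0.25 of NFATC1. Adding 1 flattens low counts, so genes close on this scale can differ widely in fold change. In hnCD16 and FR1, PELI1 had 4.62 and 26.7 TPM and FOS 0.0333 and 3.88. P4HTM had 0.0167 and 9.13 TPM and JUN 0.700 and 12.8. For NFATC2, whose own profile varied by only 0.151, 3287 genes lay within 0.25, so its nearest gene is 1 of many with a nearly flat profile.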

How the data were processed

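RNA-seq libraries of YT cells (4 groups, 3 libraries each) were analysed from gene and transcript tables. Per the study's methods and the submitters' processing notes, reads were cleaned with SOAPnuke and aligned to GRCh38.p13 with HISAT2 2.1.0 and Bowtie2 2.3.4.3, and RSEM 1.3.1 gave the values. The authors deposited RSEM expected counts, which are not normalized and can divide a read between forms or paralogs, and TPM values, which the authors computed per gene length. Strand setting and the treatment of shared reads are not given in the sources used here. The other 40 value columns of each table (FPKM, normalized counts and means) were not used.

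Counts were rounded and tested with edgeR 4.0.16 (R 4.3.3; TMM scaling, filterByExpr, quasi-likelihood F test) on all 4 groups in a single model, and p-values were adjusted over the 13657 genes tested in each of 6 comparisons. The thresholds (log2 of 1, adjusted p of 0.05) follow the study's methods, which used DESeq2. The step was tested on simulated counts. Alternatives were limma 3.58.1 on log2 TPM with 1 or 0.1 added, DESeq2 1.42.0, other scalings and filters, the replicate number as a block, and leaving out each library. Genes at 3 counts or fewer in a group are given as a ratio of summed counts with an exact (Clopper-Pearson) 95% interval. The 10 genes, the lists and the tests were chosen with earlier results of these data known. Values were given for all 10 genes and, per list, for up to 4 genes of the highest TPM among those called in FR1 and FR2 against both other groups with at least 5 TPM, or called within a pair of groups. FOSB, NR4A2, NR4A3, DYRK2, RCAN1, CD69, TNF, TNFRSF4, LTA, HSP90AA1 and the individual cell type markers were named after their values were seen. So were MAPK8, HSPA1A, HSPA8, HSPD1 and HSPE1. Gene positions are from GENCODE v44 and promoters from RefSeq (GRCh38.p14).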

Additional observations from a re-analysis of the deposited data

How the results depend on the processing

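Under DESeq2, limma, RLE scaling, total counts only, no filter, at least 10 counts in every library, fits of only 2 groups, the replicate block, no fold threshold and the leaving out of single libraries, 874 of 925 alternative log2 fold changes of the 10 genes kept their direction and their side of the thresholds, 13 lost and 15 gained the call, and 23 changed sign. IRF4, BATF, JUN, FOS and EGR1 were called higher and NFATC1 lower in FR1 and FR2 against hnCD16 and CTRL wherever they were tested. With at least 10 counts in every library, which removes genes near 0 in a group, 4, 2, 3 and 2 of the 10 genes were called in FR1 and FR2 against hnCD16 and FR1 and FR2 against CTRL, and 2992, 3151, 2966 and 2965 of all genes, with 8 in hnCD16 against CTRL and 73 in FR1 against FR2. Without the fold threshold, 10799, 10943, 10913 and 10948 of all genes passed, with 5874 and 4939 in the last pair of comparisons, and of the 10 genes 2 in hnCD16 against CTRL and 3 in FR1 against FR2. In FR1 against FR2, 0 of the 10 were called by DESeq2, limma on either scale, RLE scaling, total counts only or at least 10 counts, and EGR2 then had log2 values of 0.62 to 1.0 where it was tested; for all genes limma on log2(TPM + 1) called 58. In hnCD16 against CTRL all genes called were 32 by DESeq2, 6 by limma on log2(TPM + 1) and 47 with only these groups, against 72 in edgeR. NR4A1 in FR1 against hnCD16 lost its call in limma (0.63 and 0.98) and with total counts only (0.95).

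Without single libraries, the 10 genes called ranged from 8 to 9 in FR1 against hnCD16 and against CTRL, were 7 in FR2 against either, 0 in hnCD16 against CTRL, and from 0 to 1 in FR1 against FR2. All genes called ranged from 5270 to 5356, 5433 to 5506, 5223 to 5318, 5276 to 5327, 74 to 87 and 250 to 287. The signs that changed belong to uncalled differences, all near 0 except that of NFATC1, which rests on 3 counts (0.82, SE 1.39). In hnCD16 against CTRL these were EGR2 (-0.04 in limma on log2(TPM + 0.1), -0.01 with total counts, -0.44 to 0.58 without single libraries), FOS (-0.01 with total counts, -0.44 to 0.58), and BATF3 (-0.10 in both limma fits, -0.07 with total counts, -0.01 to 0.11 without single libraries). In FR1 against FR2 these were NFATC1 (-1.93 without replicate 1 of FR1, and up to 2.74 without replicate 2 of FR2), BATF (-0.01 in DESeq2 and RLE, -0.05 with total counts, -0.03 to 0.04) and FOS (-0.10 to 0.03). Replicate numbers come from the labels. The deviations of same-numbered libraries had correlations of -0.102 to 0.404, with no comparison above 0.1 in all 3 pairs. In hnCD16 against CTRL they were 0.338 for replicate 1 and 0.404 for replicate 3, but 0.0196 for replicate 2. In FR2 against CTRL the highest was 0.201, for replicate 3. Whether such libraries were handled together was not tested. With the replicate block 9, 7, 8, 7, 0 and 1 of the 10 genes and 5247, 5395, 5207, 5233, 75 and 275 of all genes were called. By CPM in place of TPM, 4, 3, 6 and 5 of the 10 genes kept their rank in CTRL, hnCD16, FR1 and FR2. Depth limits FOS, EGR2 and NFATC1, which had 3 counts or fewer in every library of at least 1 group.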

Other observations

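Several relatives of the 10 genes had too few counts to be tested. EGR3, which acts with EGR2, had a mean of 0.010 TPM in CTRL, was listed at 0 in hnCD16, and had 0.147 TPM in FR1 and 0.133 in FR2. IRF8, the closest relative of IRF4, had 0.283 TPM in CTRL and 0.310 in hnCD16, but 0 in FR1 and 0.0133 in FR2. FOSL1 had 0.197, 0.18, 0.323 and 0.327 TPM, and BATF2, the third BATF gene, had no more than 0.0533 TPM in any group. These genes were chosen for their low values, and no comparison was made.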
